A study of Mus musculus with 21 samples.

Results

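The 48 cell cycle genes described here were taken by name from a list of genes with known cell cycle roles, drawn up with earlier results of these data known and with no threshold on measured values, out of 24594 genes counted in both RNA-seq tables of the study. They comprise 16 genes of DNA replication, 18 genes of mitosis, 11 genes of the G1 phase (cyclins, kinases and kinase inhibitors) and 3 transcription factors of the E2F and Myb families. The first table followed cranial neural crest cells (CNCCs) that build the external ear, in 3 libraries per stage. At E10.5 they were dissected from PA2, the second of the pharyngeal arches, and at E12.5 and E14.5 from the prominence that forms the pinna. These cells were sorted by their red fluorescence from Wnt1::Cre;ROSA-RFP mouse embryos, in which Cre under the Wnt1 promoter marks crest progenitors before they migrate, so the sort holds every descendant of those progenitors. The second table held whole dissected tissue of E10.5 embryos, with no sort stated, from PA2 and the neighbouring PA3 of wild-type (WT) embryos and of HIRE1del/del embryos, with 3 libraries in each of the 4 groups. HIRE1del/del embryos lack both copies of HIRE1, a distant element that acts on Hoxa2, after CRISPR/Cas9 deletion in C57Bl/6J mice; the mice had a mixed C57Bl/6J;CD1 background, and embryos are stated to be pooled over both sexes. The labels call the libraries of a group independent biological replicates. Tissue was digested with trypsin at E10.5 and E12.5 and with papain at E14.5, so that digestion and the step to E14.5 cannot be told apart.

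Proliferating cells pass from G1 through DNA replication (S phase) and G2 into mitosis. D cyclins bind Cdk4 and Cdk6 and E cyclins bind Cdk2 to inactivate the retinoblastoma proteins, which frees E2F factors to switch on genes of DNA replication, while inhibitors of the Cip/Kip and INK4 families hold these kinases back. Genes of G2 and mitosis are switched on later, in part through a complex of Mybl2 with the MuvB proteins and Foxm1 that acts at a cell cycle homology region (CHR) and CCAAT boxes of their promoters. The second arch mesenchyme expands rapidly before it forms the cartilage and connective tissue of the ear.

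Library totals ran from 25.8 to 49.06 M counts, with the E14.5 libraries the deepest (47.51 to 49.06 M). Values are CPM (counts per M counts of the library) scaled for library composition, and levels are set between genes only after division by exonic length (CPM per kb). Hoxa2 checked the genotype labels, at 73.4 to 84.3 CPM in WT PA2 against 4.75 to 7.10 CPM in HIRE1del/del PA2, and at 56.0 to 65.1 against 22.1 to 25.6 CPM in PA3. The sorted libraries held 5 erythroid markers at a summed 0.883 to 7.17 CPM and 7 crest mesenchyme markers at a summed 1601 to 4074 CPM. The arch libraries held the same erythroid markers at 1346 to 21540 CPM, 6 epithelial markers at 170.5 to 524 CPM and 5 endothelial markers at 272 to 339 CPM, so they were not crest cells alone. WT replicate 1 stood apart in the summed level of 4 Y-linked genes, at 0.271 CPM in PA2 and 6.62 CPM in PA3 against 117 to 268 CPM in the other arch libraries, and the arch results are given below with and without these libraries. In bulk libraries of either kind, fewer cycling cells and less RNA of a gene per cycling cell cannot be told apart.

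A gene was tested where it reached 1 CPM in at least 2 libraries, which held for 48 of 48 members in the arch table and for 45 of 48 in the sorted table. The exceptions were Cdc45, a subunit of the replicative helicase, Kif11, the motor protein that separates spindle poles, and Cdkn1a, the inhibitor p21. Cdc45 was listed at 0 in all 9 sorted libraries and at 1.07 to 2.77 CPM in the 12 arch libraries. Kif11 reached at most 0.723 CPM in the sorted libraries and stood at 21.2 to 54.0 CPM in the arch libraries. Cdkn1a reached at most 0.357 CPM in the sorted libraries, where 0, 0 and 0.0654 CPM were listed at E10.5, 0.0743, 0 and 0 CPM at E12.5 and 0.0881, 0.357 and 0.153 CPM at E14.5. Several genes beside these 3 were also at or near 0 in the sorted libraries. Next to Kif11 on chromosome 19, March5 was listed at 0 and Ide at 0 to 0.0343 CPM at E10.5, and next to Cdc45 on chromosome 16, Ufd1 was listed at 0. Of 7781 genes with at least 20 CPM in every WT PA2 library, 46 were under 0.5 CPM in every E10.5 sorted library. No absence of these 3 genes from crest cells is read from such values, whose origin was not tested.

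Promoters of the replication and mitosis genes differ in known regulatory sequence, and the windows of the genes with the deepest falls are printed here for comparison with the changes that follow. Windows from 250 bases before to 50 bases after the transcription start came from RefSeq on GRCm38.p6 and were found for 39 of 48 members. The motifs searched on both strands were the CHR core TTTGAA, the CCAAT box CCAAT, and the E2F sites TTTGGCGC, TTTCCCGC, TTTGCCGC and TTTCGCGC. Among replication genes the largest falls from E10.5 to E14.5 with a window were those of Rrm2 (chr12:24708004-24708303 (plus strand)), Mcm5 (chr8:75109259-75109558 (plus strand)) and Mcm7 (chr5:138171834-138172133 (minus strand)), and among mitosis genes those of Plk1 (chr7:122159185-122159484 (plus strand)), Aurka (chr2:172370521-172370820 (minus strand)) and Bub1b (chr2:118597961-118598260 (plus strand)). Each is written 5′ to 3′ in the direction of transcription, with matches to any of these motifs, on either strand, in capitals.
Rrm2: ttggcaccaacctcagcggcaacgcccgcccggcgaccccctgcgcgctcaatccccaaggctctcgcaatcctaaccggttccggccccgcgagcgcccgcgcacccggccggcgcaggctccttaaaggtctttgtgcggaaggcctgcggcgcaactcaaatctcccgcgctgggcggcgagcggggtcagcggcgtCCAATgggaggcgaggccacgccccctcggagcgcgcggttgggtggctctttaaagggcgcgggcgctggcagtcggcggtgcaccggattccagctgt
Mcm5: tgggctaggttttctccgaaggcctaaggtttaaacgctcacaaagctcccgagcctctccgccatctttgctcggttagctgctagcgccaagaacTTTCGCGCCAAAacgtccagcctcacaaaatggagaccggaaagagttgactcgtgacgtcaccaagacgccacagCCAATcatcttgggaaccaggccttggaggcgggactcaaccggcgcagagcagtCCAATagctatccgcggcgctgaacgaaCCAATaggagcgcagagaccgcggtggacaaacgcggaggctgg
Mcm7: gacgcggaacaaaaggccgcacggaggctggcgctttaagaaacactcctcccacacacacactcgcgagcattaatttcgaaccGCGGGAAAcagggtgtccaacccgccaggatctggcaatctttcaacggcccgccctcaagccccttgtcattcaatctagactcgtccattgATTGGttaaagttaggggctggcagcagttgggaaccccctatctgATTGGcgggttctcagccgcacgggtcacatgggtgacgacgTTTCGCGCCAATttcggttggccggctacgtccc
Plk1: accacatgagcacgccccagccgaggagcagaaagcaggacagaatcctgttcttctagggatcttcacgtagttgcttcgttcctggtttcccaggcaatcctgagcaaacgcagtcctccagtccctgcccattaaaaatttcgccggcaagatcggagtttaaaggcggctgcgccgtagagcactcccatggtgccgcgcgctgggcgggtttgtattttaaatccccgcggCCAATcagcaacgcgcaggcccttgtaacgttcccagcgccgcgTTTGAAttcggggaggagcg
Aurka: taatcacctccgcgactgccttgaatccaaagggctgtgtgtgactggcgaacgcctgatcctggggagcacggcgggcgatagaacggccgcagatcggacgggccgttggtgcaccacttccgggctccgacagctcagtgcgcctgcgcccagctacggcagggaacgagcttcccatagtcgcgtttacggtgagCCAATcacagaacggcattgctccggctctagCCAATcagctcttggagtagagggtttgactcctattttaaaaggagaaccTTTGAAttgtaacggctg
Bub1b: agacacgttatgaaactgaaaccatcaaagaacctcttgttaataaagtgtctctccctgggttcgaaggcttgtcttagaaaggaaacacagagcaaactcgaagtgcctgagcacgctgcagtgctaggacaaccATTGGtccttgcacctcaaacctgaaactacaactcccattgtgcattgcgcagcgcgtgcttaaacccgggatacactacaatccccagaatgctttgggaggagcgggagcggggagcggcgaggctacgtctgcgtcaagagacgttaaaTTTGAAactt

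The CHR core lay 31 bases after the start in Plk1, 33 bases after it in Aurka and 41 bases after it in Bub1b, and the 3 replication windows held no CHR core. Mcm5 and Mcm7 each held 3 CCAAT boxes and 2 E2F matches, those of Mcm5 overlapping each other and 1 of those of Mcm7 overlapping a CCAAT box. Mcm7 had 2 windows, and the printed window was chosen by the number of kinds of motif it held. The Rrm2 window held 1 CCAAT box and no E2F match. Over the matched genes, the CHR core was present in 11 of 15 mitosis windows (73.3%), 2 of 13 replication windows (15.4%) and 0 of 8 G1 windows, against 14.1% of the 10497 tested genes with a window and 20.2% of all 27025 genes with a window. E2F matches ran the other way, in 7 of 13 replication windows (53.8%) and 1 of 15 mitosis windows (6.67%), against 4.75% of tested genes and 2.60% of all genes. CCAAT boxes were present in 14 of 15 mitosis windows (93.3%) and 10 of 13 replication windows (76.9%), against 43.2% of tested genes. A gene was counted if any of its windows held the motif. These shares describe letters in the windows, and binding was not measured.

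Expression of the members fell from arch to pinna in both steps, for replication and mitosis genes without exception among those tested. From E10.5 PA2 to E12.5 pinna, 39 of 45 members fell and 4 rose at an adjusted p under 0.05 in edgeR's quasi-likelihood test, where 33.7% of all 13438 tested genes fell and 35.0% rose. From E12.5 to E14.5 pinna, 37 of 45 fell and 4 rose, against 33.1% and 32.6% of all genes. Over the whole interval 38 fell and 6 rose, against 40.0% and 42.0%. The median log2 change of the 45 members was -0.96 in the first step, -0.91 in the second and -1.97 over both, while the medians of all tested genes were 0.01, -0.008 and 0.024. All 15 tested replication genes and all 17 tested mitosis genes fell in both steps. The 10 tested G1 genes divided, with 4 lower and 4 higher in the first step, 3 lower and 3 higher in the second, and 4 lower and 6 higher over both. For 10 genes these counts were near the shares of all tested genes, apart from the 6 higher over both (42.0% of all genes).

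**Figure D1:**
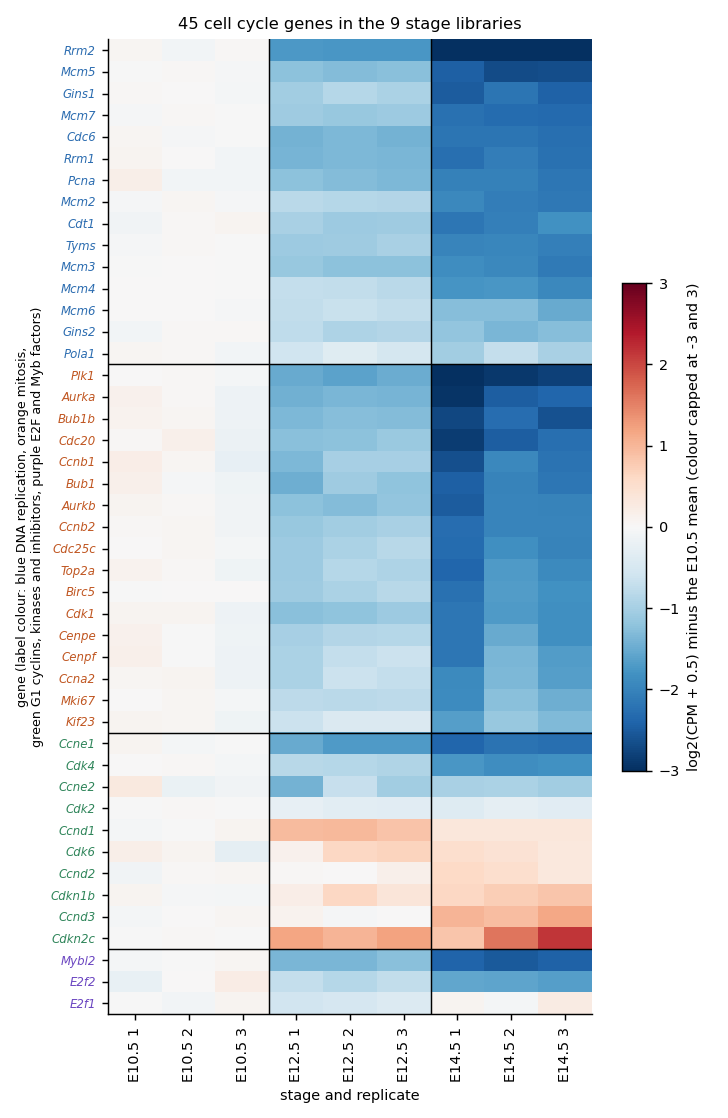
Heat map of the 45 tested members (vertical axis, grouped by subset) in the 9 sorted libraries (horizontal axis), coloured by log2(CPM + 0.5) minus the mean of the 3 E10.5 libraries, with the colour capped at 3 in either direction. Replication and mitosis genes darken stepwise toward lower values at E12.5 and E14.5, while the G1 genes divide between falls and rises.

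Summed over members, the replication genes measured 4801 to 4949 CPM in the E10.5 libraries, 2299 to 2347 CPM at E12.5 and 1144 to 1260 CPM at E14.5, so that the mean at E14.5 was 24.8% of that at E10.5. The mitosis genes summed to 5529 to 6336 CPM at E10.5, 2882 to 3174 CPM at E12.5 and 1250 to 1910 CPM at E14.5, which left 26.7%. Groups did not overlap at any stage in either sum. By contrast the G1 genes summed to 2603 to 2670, 2496 to 2532 and 2236 to 2363 CPM, with 87.1% of the E10.5 mean left at E14.5. That sum was carried by Cdk4, its most abundant member, and without Cdk4 it stood at 127% of the E10.5 mean. The 3 factors summed to 129 to 146 CPM at E10.5, 70.6 to 76.2 CPM at E12.5 and 61.3 to 71.6 CPM at E14.5. Their sum turned on E2f1, without which 22.3% of the E10.5 mean was left instead of 48.8%.

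**Figure D2:**
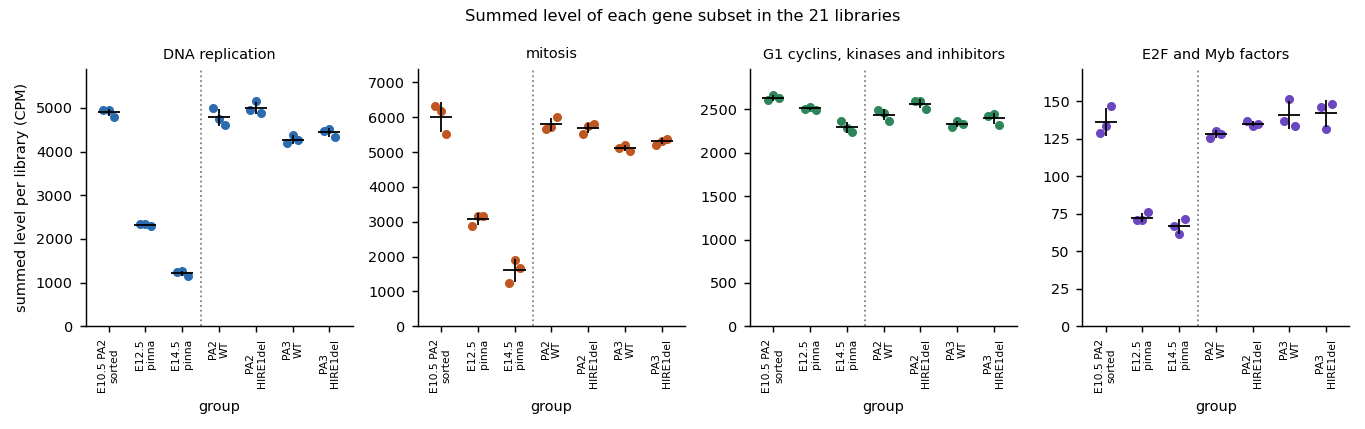
Summed CPM (vertical axis, from 0) of the replication, mitosis, G1 and factor genes in each of the 21 libraries, by group along the horizontal axis, with bars for the mean and SD of the 3 libraries. Replication and mitosis sums step down from E10.5 to E14.5 in the sorted table, while the 4 arch groups lie close together; the sorted and arch tables were scaled apart.

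Rrm2, the small subunit of ribonucleotide reductase that makes deoxynucleotides, had the deepest fall of all 45 members. It measured 421, 387 and 415 CPM at E10.5, 124, 120.4 and 121 CPM at E12.5 and 35.8, 44.4 and 38.97 CPM at E14.5. Its log2 change was -1.74 (SE 0.0763, adjusted p = 9.91e-09) in the first step and -1.61 (SE 0.0773, adjusted p = 2.21e-08) in the second, and 9.75% of the E10.5 level was left at E14.5. Cdc6, which loads the MCM helicase onto origins, stood at 118, 110.1 and 113 CPM at E10.5, 42.2, 44.2 and 41.9 CPM at E12.5 and 24.6, 24.4 and 23.1 CPM at E14.5. It fell by 1.41 on the log2 scale in the first step (SE 0.0577, adjusted p = 6.08e-09) and by 0.83 in the second (SE 0.0584, adjusted p = 4.03e-07). No library of one stage overlapped another for either gene.

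The helicase subunits Mcm2 to Mcm7 all fell in both steps but by unequal amounts. Mcm5 counted 579.6, 598 and 573 CPM at E10.5, 249, 238 and 243 CPM at E12.5 and 106, 90.8 and 91.9 CPM at E14.5. It lost 1.26 and then 1.33 on the log2 scale, for a change over both steps of -2.60 (SE 0.0699, adjusted p = 6.63e-11). Mcm2 counted 456, 486 and 456 CPM at E10.5, 265, 257 and 255 CPM at E12.5 and 121, 110.3 and 105 CPM at E14.5, with a log2 change of -0.85 (SE 0.0628, adjusted p = 4.56e-07) followed by -1.21 (SE 0.0635, adjusted p = 4.33e-08). Mcm6 kept the most of the 6, at 39.1% of its E10.5 level. Per kb of exon, the highest of the 6 exceeded the lowest by 1.49-fold at E10.5 (Mcm5 at 146 ± 3.23 CPM per kb and Mcm7 at 97.7 ± 2.87, SD, n = 3), by 1.64-fold at E12.5 and by 2.44-fold at E14.5 (Mcm6 at 48.3 ± 4.48 and Mcm7 at 19.8 ± 0.600). In the 4 arch groups at E10.5 this ratio was 1.20 to 1.24. Subunits of one hexamer thus spread apart in level from E10.5 to E14.5 in the sorted cells.

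Pcna, the sliding clamp of the polymerases, measured 273, 228 and 227 CPM at E10.5, 103, 98.5 and 94.2 CPM at E12.5 and 58.7, 59.2 and 53.5 CPM at E14.5. It changed by -1.30 (SE 0.08, adjusted p = 1.15e-07) and then by -0.79 (SE 0.08, adjusted p = 6.83e-06) on the log2 scale. Gins1, a subunit of the GINS complex of the helicase, measured 47.1, 46.1 and 43.7 CPM at E10.5, 21.8, 25.1 and 23.6 CPM at E12.5 and 7.67, 9.59 and 8.12 CPM at E14.5. Its second step was the larger of the 2, at -1.47 (SE 0.0953, adjusted p = 2.08e-07) after -0.96 (SE 0.0906, adjusted p = 3.12e-06). Pola1, the catalytic subunit of the primase-coupled polymerase, had the smallest fall among replication genes, with 53.3% of the E10.5 level left at E14.5. Gins2, at 40.8%, shares 67.3% of its exonic bases with Gse1 on the opposite strand, and reads of these genes could not be told apart if strand was not marked.

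Whether the second step differed from the first was tested directly. Of 45 members, 4 changed lower and 10 changed higher in the second step than in the first, against 22.9% and 20.5% of all tested genes, so that the share of members lower was under the background and the share higher was close to it. Under total counts 8 members were lower and 6 higher. Calls over all 13438 tested genes moved too, from 3076 lower and 2760 higher to 4313 lower among 6162 called. Leaving out 1 library gave 2 to 5 members lower and 5 to 12 higher. Among replication genes the second fall was the smaller for Cdc6 (difference in log2 0.58 (SE 0.101, adjusted p = 0.000853)), Rrm1 (0.55, SE 0.117, adjusted p = 0.00299), Pcna, Mcm3 and Gins2, and the larger for Gins1 (-0.51 (SE 0.158, adjusted p = 0.0217)), Mcm2 and Mcm4. None of 17 mitosis genes was called different between the steps in edgeR. Their differences ran from -0.37 to 0.47, and 1 had an unadjusted p under 0.05, against 6925 of all 13438 tested genes. Many of these calls were easily lost. Those for Rrm1 and Cdc6 held under all 16 alternatives tried for that test. The call for Mcm4 was lost in 8 of 16, among them DESeq2 size factors, no filter on low counts and leaving out any 1 E10.5 library (adjusted p up to 0.123). Those for Gins2, Mcm3 and Pcna were lost with total counts (adjusted p = 0.127, 0.115 and 0.0731) and without E12.5 replicate 3, where Gins1 was lost too. Without E12.5 replicate 2 the calls for Gins1 and Gins2 were lost, and without E12.5 replicate 1 that for Mcm2 (adjusted p = 0.0683).

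**Figure D3:**
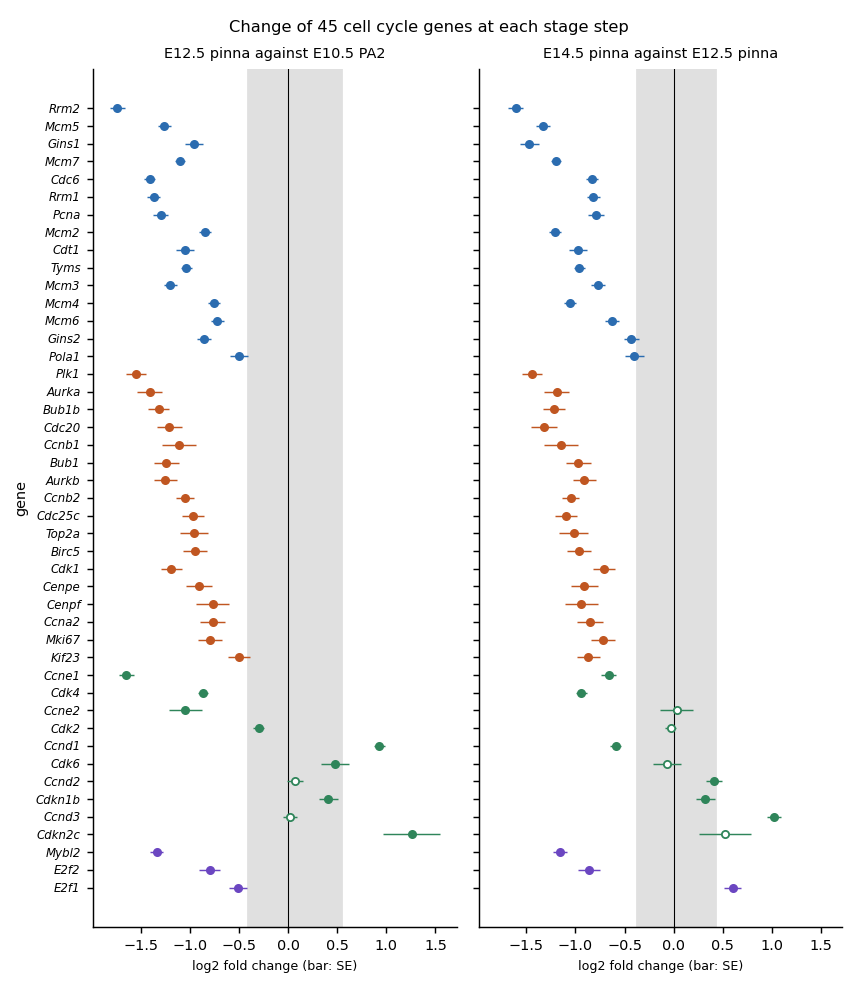
Log2 change with its SE (horizontal axis) for each of the 45 tested members (vertical axis) from E10.5 PA2 to E12.5 pinna and from E12.5 to E14.5 pinna, filled where the adjusted p was under 0.05, with a grey band for the middle 50% of all 13438 tested genes. Every replication and mitosis gene lies below 0 in both panels.

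Mitosis genes fell by similar amounts in each step, with a median log2 change of -1.05 and then -0.97. Plk1, the kinase that drives entry into and passage through mitosis, had the deepest fall of them and measured 152, 153 and 144 CPM at E10.5, 51.9, 48.5 and 53.2 CPM at E12.5 and 15.4, 19.8 and 21.2 CPM at E14.5. Its log2 change was -1.55 (SE 0.0986, adjusted p = 1.46e-07) and then -1.44 (SE 0.101, adjusted p = 3.96e-07), leaving 12.6%. Aurka, the kinase of the spindle poles, measured 172, 162 and 141 CPM at E10.5, 58, 61.3 and 60.2 CPM at E12.5 and 20.3, 28.2 and 30.1 CPM at E14.5, and changed by -1.41 (SE 0.125, adjusted p = 1.93e-06) and -1.19 (SE 0.128, adjusted p = 1.02e-05). Cdc20, which activates the anaphase-promoting complex, measured 249.7, 271 and 218 CPM at E10.5, 103, 104 and 114 CPM at E12.5 and 33.9, 44.2 and 50.4 CPM at E14.5. Its fall in the second step, -1.32 (SE 0.129, adjusted p = 5.01e-06), was among the 2 deepest of the subset. Stages did not overlap for any of the 3.

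Cdk1, the kinase of mitotic entry, was at 256, 255 and 218 CPM at E10.5, 102, 104 and 114 CPM at E12.5 and 53.7, 73.7 and 67.8 CPM at E14.5. It changed by -1.19 (SE 0.11, adjusted p = 2.58e-06) and then by -0.71 (SE 0.11, adjusted p = 0.000162). Its partner Ccnb1 was at 109.8, 99.5 and 80.9 CPM at E10.5, 37.6, 48.1 and 48.2 CPM at E12.5 and 14.96, 24.9 and 20.4 CPM at E14.5, with log2 changes of -1.11 (SE 0.171, adjusted p = 0.000135) and -1.15 (SE 0.175, adjusted p = 0.000152). Both B cyclins fell in step, and Ccnb2 made up 79.0% of their summed level per kb at E10.5, 79.8% at E12.5 and 81.0% at E14.5. Mki67, the gene of the proliferation antigen Ki-67, kept more of its level than most. It was at 1136, 1180 and 1090 CPM at E10.5, 659.5, 649.8 and 653 CPM at E12.5 and 307, 475 and 411 CPM at E14.5, with log2 changes of -0.80 (SE 0.122, adjusted p = 0.000134) and -0.72 (SE 0.122, adjusted p = 0.000336) and 35% left. Top2a, the topoisomerase that untangles sister chromatids, was at 1833, 1758 and 1560 CPM at E10.5, 803, 940.4 and 903 CPM at E12.5 and 327, 527 and 452 CPM at E14.5, and fell by 0.96 and 1.02 on the log2 scale. The smallest fall of the subset was that of Kif23, a motor of cytokinesis, with 38.6% left at E14.5, and the remaining spindle checkpoint, kinetochore and chromosome passenger genes (Bub1, Bub1b, Cenpe, Cenpf, Aurkb and Birc5) kept between 17.2% and 30.4%.

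Mitosis genes varied together within a stage more than replication genes did. E14.5 replicate 1 had the lowest CPM of its group for 17 of 17 mitosis genes, E10.5 replicate 3 for 16 of 17 and E12.5 replicate 1 for 14 of 17. For replication genes no library held the lowest value for more than 8 of 15. At E14.5 the highest library exceeded the lowest by a median of 1.48-fold over mitosis genes and by 1.15-fold over replication genes. All 17 mitosis genes stayed lower in both steps with any 1 library left out.

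Among the D cyclins, Ccnd1 rose and then fell, while Ccnd2 and Ccnd3 were called in the second step, where both rose, and not in the first. Ccnd1 measured 413, 428 and 460.2 CPM at E10.5, 842, 844 and 790.3 CPM at E12.5 and 550.5, 549.7 and 549 CPM at E14.5. It rose by a log2 change of 0.93 (SE 0.0572, adjusted p = 1.15e-07) and then changed by -0.59 (SE 0.0568, adjusted p = 4.66e-06), and the difference between the steps was -1.52 (SE 0.0958, adjusted p = 5.64e-07). Ccnd2 measured 528, 581 and 590.1 CPM at E10.5, 584, 573 and 624 CPM at E12.5 and 863, 799 and 705 CPM at E14.5. Its level in the first step changed by 0.07 (SE 0.0785, adjusted p = 0.459), with overlapping libraries, and rose in the second by 0.41 (SE 0.0785, adjusted p = 0.000781). Ccnd3 measured 125, 131 and 135 CPM at E10.5, 140.2, 127 and 130.5 CPM at E12.5 and 264, 247 and 294 CPM at E14.5, with a change of 0.02 (SE 0.0719, adjusted p = 0.781) in the first step, where libraries overlapped, and a rise of 1.02 (SE 0.0721, adjusted p = 4.23e-07) in the second (difference between the steps 0.99, adjusted p = 0.0001). Per kb, Ccnd1, Ccnd2 and Ccnd3 made up 47.2%, 41.9% and 10.9% of summed D cyclin at E10.5, 62.0%, 30.3% and 7.63% at E12.5, and 42.6%, 41.5% and 15.9% at E14.5. The D cyclins were thus at or above their E10.5 level at E14.5, when the replication and mitosis sums were at 24.8% and 26.7% of theirs. Of the exonic bases of Ccnd1, 23.4% overlap a gene on the opposite strand.

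Ccne1 and Ccne2, the cyclins of S phase entry, fell in the first step. Ccne1 measured 94.7, 87.03 and 88.7 CPM at E10.5, 31.4, 27.4 and 27.3 CPM at E12.5 and 16.98, 18.9 and 18.5 CPM at E14.5, and changed by -1.65 (SE 0.0759, adjusted p = 1.47e-08) and -0.66 (SE 0.0768, adjusted p = 1.87e-05). Ccne2 measured 54.9, 39.2 and 41.6 CPM at E10.5, 16.4, 27.4 and 21.5 CPM at E12.5 and 22.6, 22.9 and 21.5 CPM at E14.5, and changed by -1.05 (SE 0.168, adjusted p = 0.000188) and then by 0.03 (SE 0.168, adjusted p = 0.872), so that its E12.5 and E14.5 libraries overlapped. Per kb, Ccne1 exceeded Ccne2 by 2.63-fold at E10.5, by 1.73-fold at E12.5 and by 1.07-fold at E14.5. The second step was smaller than the first for Ccne1 (difference 0.99 (SE 0.134, adjusted p = 0.000149)), and for Ccne2 (1.08, SE 0.297, adjusted p = 0.0123) except without E12.5 replicate 1 or 3 (adjusted p up to 0.0562 over the alternatives).

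Kinases of G1 also parted. Cdk4 measured 1077, 1099 and 1029 CPM at E10.5, 599.5, 587 and 569.7 CPM at E12.5 and 316, 295 and 303 CPM at E14.5, with log2 changes of -0.87 (SE 0.0535, adjusted p = 1.16e-07) and -0.94 (SE 0.0536, adjusted p = 7.96e-08). Cdk6, which binds the same D cyclins, measured 84.9, 79.3 and 62.2 CPM at E10.5, 81.6, 115 and 118 CPM at E12.5 and 106, 101 and 93.1 CPM at E14.5. It rose by 0.48 (SE 0.143, adjusted p = 0.011) in the first step although 1 E12.5 library lay within the E10.5 range, and changed by -0.07 (SE 0.141, adjusted p = 0.665) in the second. Over both steps its log2 change was 0.41 (SE 0.142, adjusted p = 0.0202), a call lost without E10.5 replicate 3 (adjusted p = 0.0872) or E14.5 replicate 1 (adjusted p = 0.0588). Per kb, Cdk4 exceeded Cdk6 by 51.5-fold at E10.5, 20.2-fold at E12.5 and 11.1-fold at E14.5, so Cdk4 remained by far the more abundant. Cdk2 kept 79.6% of its E10.5 level at E14.5, and the difference between its steps (0.27 (SE 0.0937, adjusted p = 0.0389)) was not called under 9 alternatives, among them leaving out any 1 E10.5 library.

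Of the kinase inhibitors among the members, the 2 that were tested, Cdkn1b and Cdkn2c, rose over both steps. Cdkn1b, the inhibitor p27, measured 68.2, 62.6 and 62.1 CPM at E10.5, 74.1, 98.6 and 83.2 CPM at E12.5 and 99.5, 107 and 114 CPM at E14.5. Its log2 rise was 0.41 (SE 0.098, adjusted p = 0.00312) in the first step and 0.32 (SE 0.0967, adjusted p = 0.0117) in the second, the latter lost without E12.5 replicate 3 (adjusted p = 0.0514) and with scaling to total counts (adjusted p = 0.0788). Cdkn2c, the INK4 inhibitor p18, measured 2.74, 2.88 and 2.75 CPM at E10.5, 6.94, 6.14 and 7.04 CPM at E12.5 and 5.35, 9.46 and 13.9 CPM at E14.5. It rose by 1.26 (SE 0.29, adjusted p = 0.00235) in the first step, and the second step gave 0.52 (SE 0.267, adjusted p = 0.109) with a wide spread among the E14.5 libraries, 1 of which lay below all E12.5 libraries. Cdkn1b was the more abundant per kb at every stage, at 14.1 ± 0.751, 18.7 ± 2.72 and 23.5 ± 1.64 CPM per kb (SD, n = 3) against 1.04 ± 0.0297, 2.50 ± 0.184 and 3.57 ± 1.60 for Cdkn2c.

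**Figure D4:**
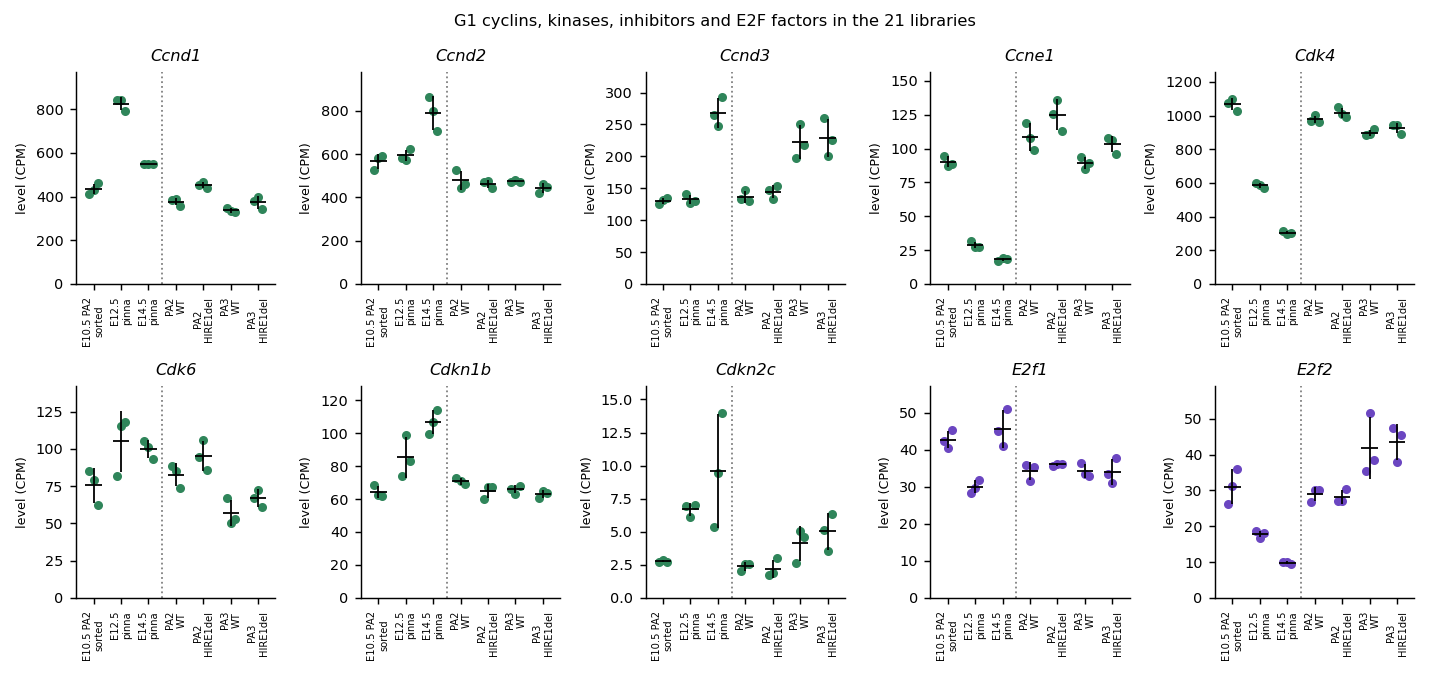
CPM (vertical axes, from 0) of 8 G1 genes and 2 E2F factors in the 7 groups (horizontal axis), with a point for each library and bars for the mean and SD of 3 libraries. Ccnd1 peaks at E12.5, Ccnd3 is high only at E14.5 within the sorted table, Cdk4 and Ccne1 step down, and Cdkn1b and Cdkn2c are higher in pinna than in E10.5 PA2.

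The 3 transcription factors did not move together. Mybl2, the Myb family factor of mitotic gene promoters, measured 60.2, 61.6 and 65.4 CPM at E10.5, 23.7, 23.97 and 26 CPM at E12.5 and 11.3, 10.4 and 11.1 CPM at E14.5. Its log2 change was -1.34 and then -1.16, with -2.51 (SE 0.0714, adjusted p = 9.08e-11) over both steps. E2f2 measured 26.1, 31.2 and 35.9 CPM at E10.5, 18.6, 16.8 and 18.2 CPM at E12.5 and 10.1, 9.92 and 9.52 CPM at E14.5, with log2 changes of -0.80 (SE 0.109, adjusted p = 5.43e-05) and -0.86 (SE 0.112, adjusted p = 4.68e-05). E2f1 measured 42.3, 40.6 and 45.3 CPM at E10.5, 28.4, 29.8 and 31.98 CPM at E12.5 and 45.1, 40.9 and 50.97 CPM at E14.5. It changed in the first step by -0.51 (SE 0.0883, adjusted p = 0.000354) and rose in the second by 0.60 (SE 0.0875, adjusted p = 0.000106), so that E14.5 and E10.5 libraries overlapped (log2 change 0.10 (SE 0.0863, adjusted p = 0.316)), and the difference between the steps was 1.11 (SE 0.156, adjusted p = 0.000195). The level of E2f1 at E14.5 therefore stood apart from the replication genes, which continued to fall.

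Of 135 further cell cycle genes in lists that were drawn up with results known, 133 were tested in the sorted table. In the first step 110 fell and 8 rose, against 33.7% and 35% of all tested genes. In the second 100 fell and 6 rose, against 33.1% and 32.6%. Over both 115 fell and 10 rose, against 40% and 42%. Of 42 further replication genes, 40 fell over both steps and none rose, with a median log2 change of -1.53 and the deepest falls for Mcm10 (-2.79 (SE 0.071, adjusted p = 4.6e-11)) and Fen1 (-2.76 (SE 0.0569, adjusted p = 1.45e-11)), a replication initiation factor and the flap nuclease of lagging strand synthesis. All 54 further mitosis genes fell over both steps, with a median of -1.76 and falls of -2.74 (SE 0.148, adjusted p = 1.09e-08) for Spc24, a kinetochore subunit, and -2.61 (SE 0.177, adjusted p = 7.52e-08) for Ube2c, the ubiquitin-conjugating enzyme of the anaphase-promoting complex. Nek2, a centrosomal kinase of the same list, was too low for a ratio, at 1.24, 1.27 and 1.05 CPM at E10.5 and at most 0.210 CPM later. Of 14 further factors, 12 fell and none rose, led by E2f3 (-2.00 (SE 0.0585, adjusted p = 1.09e-10)) and E2f7 (-1.91 (SE 0.0687, adjusted p = 4.74e-10)).

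Of the further G1 genes and inhibitors, 9 were lower and 10 higher over both steps among 23 tested, shares close to the 40% lower and 42% higher of all tested genes. Cdkn1c, the Cip/Kip inhibitor p57, measured 129, 172 and 190 CPM at E10.5, 677, 633 and 631 CPM at E12.5 and 721, 732 and 1040 CPM at E14.5. It rose by 1.98 (SE 0.16, adjusted p = 8.98e-07) in the first step and changed by 0.36 (SE 0.154, adjusted p = 0.0571) in the second, and per kb it was the most abundant of 7 kinase inhibitors at every stage (80.4 ± 15.4, 317 ± 12.7 and 408 ± 89.4 CPM per kb, SD, n = 3). Btg2, an antiproliferative gene that p53 can induce, measured 7.09, 7.34 and 8.43 CPM at E10.5, 28.8, 24.5 and 50.4 CPM at E12.5 and 237, 288 and 315 CPM at E14.5, with rises of 2.18 (SE 0.246, adjusted p = 1.26e-05) and 3.02 (SE 0.225, adjusted p = 6.23e-07). Rbl2, the retinoblastoma relative p130, rose by 1.79 (SE 0.0745, adjusted p = 6.75e-09) and 0.61 (SE 0.0685, adjusted p = 1.47e-05). Btg1, Mxd4 and Mxi1 rose over both steps by 1.48, 1.36 and 1.15. Among those that fell were Cks2 (-2.40) and Cks1b (-2.09), small partners of cyclin-dependent kinases, the phosphatase Cdc25a (-1.59) and the kinase Wee1 (-1.38). Not all inhibitors were higher. Cdkn2d, the INK4 inhibitor p19, was not called over both steps (-0.02 (SE 0.0976, adjusted p = 0.881)), and Cdkn2b, the INK4 inhibitor p15, was at 1.14, 1.75 and 2.09 CPM at E10.5 and at most 0.126 CPM later.

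Markers of other cell types moved along with the stages. Melanocyte markers, whose cells also descend from the crest, summed to 5.92 to 7.93 CPM at E10.5, 31.4 to 44.1 CPM at E12.5 and 335 to 384 CPM at E14.5, with 4 of 4 rising in both steps. Glial markers summed to 20.5 to 23.4, 21.6 to 25.6 and 84.3 to 99.8 CPM, with 4 of 4 tested higher in the second step. Endothelial markers summed to 17.1 to 20.2, 23.6 to 32.5 and 115 to 181 CPM, of which 1 of 5 rose over both steps and 1 fell. Epithelial markers summed to 9.17 to 11.4, 7.84 to 9.65 and 24.8 to 42.6 CPM, and over both steps 3 of 5 tested rose (Cdh1, Krt5 and Krt14) and 2 fell (Epcam and Krt18). Neuronal markers summed to 36.5 to 43.1, 22.3 to 25.8 and 7.67 to 8.51 CPM, with 3 of 3 tested lower in the first step and 1 lower and 1 higher in the second, and Neurog1 at or near 0 throughout. Crest mesenchyme markers summed to 1601 to 1852, 3429 to 3704 and 3726 to 4074 CPM. Their sum was carried by Pdgfra, and in the second step 4 of 7 rose while 3 fell, among them Prrx1 (-0.64). Cartilage markers summed to 1144 to 1213, 591 to 623 and 230.3 to 278 CPM, a sum carried by Col2a1. Of 3 tested, 3 fell in the first step, and in the second 2 fell and Acan rose (4.51), with Matn1 listed at 0 in every library of this table. The erythroid, muscle and macrophage markers stayed at or under a summed 12.2 CPM. The part of these cells in the fall of cell cycle genes was not tested.

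Deletion of HIRE1 was compared with WT in each arch, to ask which genes depend on the element. In PA2, 0 of 48 members were called in edgeR (5 at an unadjusted p under 0.05), where 0.320% of 14383 tested genes were lower and 0.118% higher. In PA3, 0 of 48 were called (5 at an unadjusted p under 0.05), against 0.160% lower and 0.0556% higher. The interaction of genotype and arch called 0 of 48 (0 at an unadjusted p under 0.05), against 0.0487% lower and 0% higher. Of all 14383 tested genes, 1233 in PA2, 1400 in PA3 and 794 in the interaction had an unadjusted p under 0.05. DESeq2 called 1 member in PA2 and 0 in PA3 and in the interaction, and limma-voom called 0 in each. Leaving out both WT replicate 1 libraries added no call in any of the 3 comparisons in edgeR. Since so few genes of any kind were called, an absence of calls among 48 is close to the background. Median log2 changes of the members were 0.03 in PA2 and 0.04 in PA3.

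The gene that DESeq2 called was Ccnd1. It measured 382, 387 and 358 CPM in WT PA2 and 453, 465 and 439.5 CPM in HIRE1del/del PA2, so that the groups did not overlap. The log2 change was 0.27 (SE 0.057, adjusted p = 0.0721) with a 95% interval of 0.14 to 0.40, at 120% of WT. It was past the threshold in 5 of the alternatives tried, with an adjusted p of 0.000975 in DESeq2, 0.0347 with no filter on low counts, 0.0154 with the replicate number as a block, 0.0440 without PA3 HIRE1del/del replicate 2 and 0.0240 without PA3 HIRE1del/del replicate 3. In PA3 Ccnd1 stood at 348, 336 and 327 CPM in WT and 380.4, 399 and 343 CPM in HIRE1del/del libraries, which overlapped (log2 change 0.15 (SE 0.057, adjusted p = 0.43)). Ccne1 had the next smallest p in PA2, at 119, 108 and 98.8 CPM in WT and 126, 136 and 113 CPM in HIRE1del/del libraries (log2 change 0.20 (SE 0.0792, adjusted p = 0.482)), and changed by 0.21 (SE 0.0796, adjusted p = 0.427) in PA3. Birc5, a chromosome passenger protein also named survivin, had the smallest p in PA3, at 118, 118 and 126 CPM in WT and 136, 132 and 128 CPM in HIRE1del/del libraries (log2 change 0.13 (SE 0.0458, adjusted p = 0.401)), and also in the interaction (-0.14 (SE 0.0648, adjusted p = 0.887)), followed there by Mybl2 (0.13 (SE 0.0758, adjusted p = 0.89)).

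For the other members at 20 CPM or more, the design limited how large a difference could have gone unseen. Among the 43 such members other than Ccnd1 and Kif11, estimates ran from -0.12 to 0.21 in PA2 and from -0.10 to 0.23 in PA3 on the log2 scale, with a median SE of 0.0565 and 0.0564. Their 95% intervals reached no lower than -0.35 (E2f2 in PA2) and no higher than 0.49 (Cdk6 in PA3). Kif11 varied more between libraries of a group, and its interval ran from -0.55 to 0.49 in PA2 and from -0.40 to 0.66 in PA3. Rrm2, with the deepest fall between stages, measured 513, 455 and 448 CPM in WT PA2 and 464, 508 and 474 CPM in HIRE1del/del PA2. Mki67 measured 846, 953 and 1096 against 835, 924 and 971 CPM, and Cdk1 258, 249.8 and 248 against 257, 249.9 and 244 CPM. Libraries of the 2 genotypes overlapped for these 3 genes.

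Other named G1 genes and factors were not called in PA2 either, with estimates on both sides of 0. Cdk6 was at 88.5, 85.3 and 73.8 CPM in WT and 94.3, 106 and 85.9 CPM in HIRE1del/del PA2, a log2 change of 0.21 (SE 0.11, adjusted p = 0.652) with overlapping libraries. Ccnd2 was at 526, 446 and 464 CPM in WT and 471, 476 and 442 CPM in HIRE1del/del PA2, and Cdkn1b at 73.04, 70.8 and 68.9 against 60.3, 67.6 and 67.2 CPM, a log2 change of -0.12 (SE 0.0565, adjusted p = 0.572) with libraries apart. Mybl2 was at 62.6, 68.8 and 62.6 against 73.97, 69.9 and 68.3 CPM (log2 change 0.13 (SE 0.0536, adjusted p = 0.517)). E2f1 was at 36.05, 31.5 and 35.4 against 35.7, 36.3 and 36.2 CPM. Top2a was at 1520, 1498 and 1642 against 1432, 1499 and 1590 CPM, and Mcm2 at 438, 416 and 399 against 448, 467 and 439 CPM, the latter with libraries apart and a log2 change of 0.11 (SE 0.0483, adjusted p = 0.534).

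WT PA3 was compared with WT PA2 to describe how the arches themselves differed. Of 48 members, 21 were lower and 4 higher in PA3, where 17.4% of all tested genes were lower and 19.1% higher. The median log2 change of the members was -0.13, against -0.001 over all 14383 tested genes. By role, 7 of 16 replication genes and 9 of 18 mitosis genes were lower and none higher, with medians of -0.13 and -0.16. These differences were small beside those between stages. Of the 21 lower genes none fell by as much as 1 on the log2 scale, and only Kif11 (-0.74) and Cdk6 (-0.53) passed -0.5.

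Rrm2 measured 513, 455 and 448 CPM in WT PA2 and 362, 375 and 355 CPM in WT PA3, a log2 change of -0.37 (SE 0.0608, adjusted p = 0.000413). Bub1, a kinase of the spindle checkpoint, measured 266, 247 and 251 and 198, 198 and 194 CPM, a change of -0.37 (SE 0.0523, adjusted p = 0.000136). Top2a measured 1520, 1498 and 1642 and 1252, 1259 and 1196 CPM, a change of -0.33 (SE 0.0548, adjusted p = 0.000491). The arches did not overlap for these 3 genes. Cenpf (-0.35) and Cenpe (-0.29) of the kinetochore, Cdc25c (-0.29), the phosphatase that activates Cdk1, Rrm1 (-0.24), the large reductase subunit, Bub1b (-0.20), Kif23 (-0.19) and Mcm4 (-0.19) were also lower in PA3. Mki67 ran from 846 to 1096 CPM in WT PA2 and from 935 to 1108 CPM in WT PA3 and was not called (log2 change 0.07 (SE 0.103, adjusted p = 0.654)). Cdk1 measured 235, 225 and 241 CPM in WT PA3 and Ccnb1 205, 198 and 190.2 CPM, with log2 changes of -0.11 (SE 0.0475, adjusted p = 0.0881) and -0.16 (SE 0.0681, adjusted p = 0.0762).

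Cdk6 measured 88.5, 85.3 and 73.8 CPM in WT PA2 and 67.1, 50.5 and 53.3 CPM in WT PA3, a log2 change of -0.53 (SE 0.111, adjusted p = 0.0023). Cdk4 measured 970.5, 1003 and 959.9 and 883, 892 and 918 CPM, with -0.12 (SE 0.0451, adjusted p = 0.0476). Pcna measured 379.6, 385 and 327 and 297, 341 and 308 CPM, with -0.21 (SE 0.0726, adjusted p = 0.0407) and overlapping libraries. Cdk4, Pcna and 8 of the other genes lower in PA3 (Ccna2, Ccnd1, Ccne1, Cdc6, Cdk2, Kif11, Mcm7 and Pola1) lost their call under at least 1 alternative. The call for Cdk4 was lost in 15 of 22 alternatives, total counts and the replicate block among them, that for Ccnd1 in 10, that for Cdc6 in 9 and that for Pcna in 8. The number of lower members was 13 rather than 21 without WT PA2 replicate 1 or without WT PA3 replicate 3, and 14 without WT PA3 replicate 1. It was 11, with 4 higher, without both WT replicate 1 libraries, a setting chosen after seeing their Y-linked level, under which Mcm4 also lost its call (adjusted p = 0.0716). The 11 others, from Rrm2 to Cdk6, kept theirs with every library left out in turn. With same-numbered PA2 and PA3 libraries treated as pairs, a pairing that no label states, 23 were lower in edgeR. The call for Cdc6 was then lost (adjusted p = 0.0526). Calls over all tested genes moved the same way, from 2501 lower in the main test. Leaving out WT PA2 replicate 1, WT PA3 replicate 3 or WT PA3 replicate 1 gave 1961, 1971 and 1963 lower. Without both WT replicate 1 libraries 1490 genes were lower, and with pairs 2955.

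The 4 members higher in PA3 were a D cyclin, 2 kinase inhibitors and E2f2. Ccnd3 measured 133, 146 and 129.5 CPM in WT PA2 and 198, 250.5 and 217 CPM in WT PA3, with 148, 133 and 154 and 260.5, 200.4 and 225 CPM in the HIRE1del/del arches, and its log2 change between WT arches was 0.70 (SE 0.1, adjusted p = 0.000153). E2f2 measured 26.8, 30.1 and 30.2 and 35.3, 51.7 and 38.5 CPM, with 26.99, 26.9 and 30.4 and 47.3, 37.9 and 45.4 CPM after deletion, a change of 0.53 (SE 0.127, adjusted p = 0.00579) between WT arches. Cdkn1a measured 2.40, 2.10 and 1.69 and 5.39, 3.25 and 4.02 CPM, with 2.63, 2.18 and 2.25 and 5.65, 4.51 and 2.71 CPM after deletion, a change of 1.03 (SE 0.267, adjusted p = 0.00874). Cdkn2c measured 2.01, 2.52 and 2.59 and 2.64, 5.07 and 4.63 CPM, with 1.77, 1.87 and 2.99 and 5.16, 3.57 and 6.36 CPM after deletion, and its change of 0.79 (SE 0.285, adjusted p = 0.0441) was lost in limma-voom and without any 1 WT PA2 library (adjusted p up to 0.160 over the alternatives). Per kb, Ccnd3 made up 13.0% of D cyclin in WT PA2 and 20.4% in WT PA3.

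Erythroid markers differed far more between the arches than these genes did, with 5 of 5 higher in PA3. They summed to 1346, 2121 and 1782 CPM in WT PA2 and to 10760, 21410 and 14330 CPM in WT PA3. The WT PA3 library with the most erythroid RNA, replicate 2, was also the highest of its group for Ccnd3, E2f2 and Cdkn2c, and replicate 1, with the least, was the lowest for these 3 genes, whereas Cdkn1a was highest in replicate 1. In HIRE1del/del PA3 erythroid markers summed to 21540, 12770 and 20060 CPM, and replicate 2, with the least, was the lowest for Ccnd3, E2f2 and Cdkn2c. Neuronal markers (5 of 5 higher, 75.01 to 77.7 CPM in WT PA2 and 136 to 183 CPM in WT PA3) and epithelial markers (4 of 6 higher and 1 lower, 184 to 204 and 406.5 to 524 CPM) also rose. So did endothelial markers (4 of 5 higher, 272 to 286 and 316 to 339 CPM) and glial markers (2 of 3 tested higher, 44.2 to 49.5 and 98.8 to 133 CPM). Crest mesenchyme markers summed to 1005 to 1122 and 665 to 832 CPM, with 4 of 7 lower and 1 higher. The part of these cells in the arch differences was not tested. Of 134 further cell cycle genes tested in this table, 69 were lower and 10 higher in PA3, against 17.4% and 19.1% of all tested genes.

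**Figure D5:**
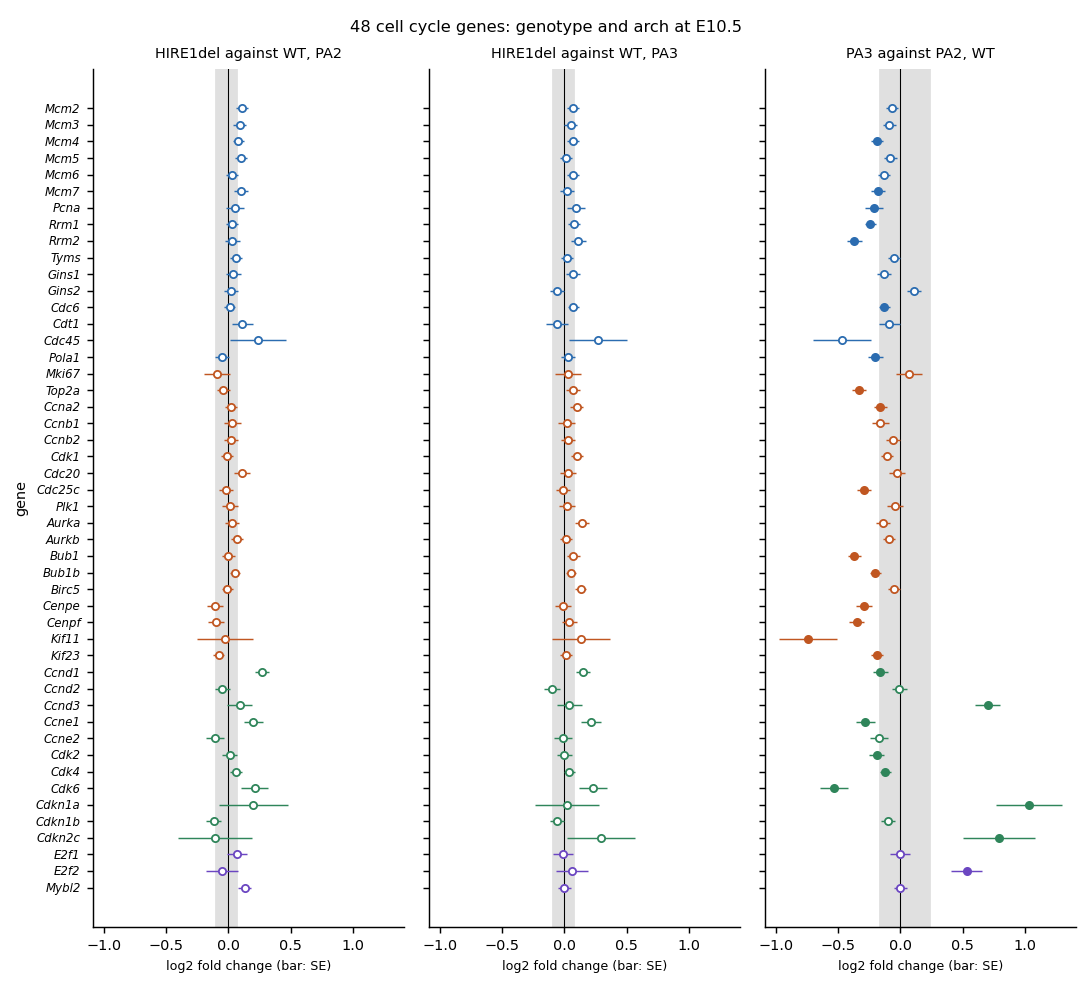
Log2 change with its SE (horizontal axis) of the 48 members (vertical axis) for HIRE1del/del against WT in PA2, the same in PA3, and WT PA3 against WT PA2, filled where the adjusted p was under 0.05. No member is filled in the first 2 panels, and 21 lower and 4 higher members are filled in the third.

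Levels at E10.5 can be set side by side between the sorted and the whole PA2 tissue, without a test because reads and scaling differed. Summed replication genes measured 4801 to 4949 CPM in sorted PA2 cells and 4614 to 4995 CPM in WT PA2 tissue, and mitosis genes 5529 to 6336 and 5666 to 6010 CPM. Cdk4 and Mybl2 were likewise close. Ccnb1 was not, at 109.8, 99.5 and 80.9 CPM in sorted cells and 245, 209.5 and 209.7 CPM in WT PA2 tissue, where it was at 224, 237 and 219 CPM after deletion. Other members stood apart too. Pcna ran from 227.4 to 272.7 CPM in sorted cells and from 327.1 to 384.8 CPM in WT PA2 tissue. Ccne2 ran from 39.2 to 54.9 and from 70.1 to 72.8 CPM, and Mcm7 from 421.9 to 446.5 and from 478.8 to 537 CPM. Cdc45, Kif11 and Cdkn1a also differed, as given above.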

How the data were processed

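RNA-seq counts per gene were analysed from 2 tables that the authors deposited: 9 single-end libraries of sorted crest cells and 12 paired-end libraries of PA2 and PA3 tissue. For these raw counts the authors aligned reads with QuasR and Rhisat2 and counted genes of the mm10 known gene set, with the orientation set to opposite. The labels name both an unstranded kit and a total RNA kit, so whether strand was marked is not certain. The tables were never compared by a test.

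Counts were fitted per table with edgeR 4.0.16 in R 4.3.3 (quasi-likelihood test, two-sided, TMM scaling, 1 mean per group, a minimum of 1 CPM in 2 libraries). P-values were adjusted by Benjamini-Hochberg over all genes tested and called under 0.05. Changes are log2 fold changes with their SE. Intervals of genotype changes are the estimate ± 2.306 SE (8 residual degrees of freedom). Alternatives were DESeq2 1.42.0, limma-voom (limma 3.58.1), other scaling and filters, blocks, a fold threshold and leaving out each library. Of 200 genes simulated with a log2 change of 1, edgeR recovered 99.5% for E12.5 pinna against E10.5 PA2 (13039 genes), with 17 false calls. For HIRE1del against WT in PA2 (14071 genes) edgeR recovered 100%, with 11 false calls. The simulation gave every gene the same spread, left the other genes unchanged and took the changed genes from those above a minimum level. Recovery of smaller changes, such as the genotype estimates of the members, and of genes with a wider spread was not tested. Motifs and overlaps used RefSeq windows and GENCODE M21 on GRCm38.

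The members and all gene lists were chosen with earlier results of these data known. All members could be named. Library values were given for 18 set genes, for the deepest falls and largest rises of each subset per stage comparison, and in the arch comparisons for called members or those with the smallest p. Replicates of a group differed by more than counting noise. Same-numbered WT PA2 and PA3 libraries deviated together (correlations 0.230 to 0.382), as did HIRE1del/del ones (0.213 to 0.342). The numbers may thus pair the arches of 1 embryo pool, although no label states this. That pairing was used only as an alternative and not in the main test.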

Additional observations from a re-analysis of the deposited data

How the results depend on the processing

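No called result of a single member reversed in direction under any alternative. Results on counts and subsets were labelled only as the same or moved, with 306 comparisons the same and 26 moved. Among the counts, the balance of the difference of the steps turned with total counts. It went from 4 lower and 10 higher to 8 lower and 6 higher. For single members, 2963 comparisons of a result with an alternative kept both direction and side of the threshold, 108 lost a call and 5 gained one. Requiring a log2 change of at least 1 in size left 21 lower and 1 higher in the first stage step and 15 lower and 1 higher in the second. Over both steps it left 36 lower and 2 higher. It left 1 lower and 2 higher in the difference of the steps, and 0 lower and 1 higher in PA3 against PA2. Of all 13438 tested genes, 912 were then lower and 1985 higher in the first step, and 1012 and 1635 in the second. Over both the counts were 2179 and 3103, and in the difference of the steps 1625 and 1014. In PA3 against PA2, 135 of 14383 genes were lower and 1064 higher. Scaling to total counts only moved the median of all genes by -0.179 in the difference of the steps, where 8 were then lower and 6 higher, and left the G1 sum at 83.1% of E10.5 instead of 87.1%. Without its most abundant member, the sum left at E14.5 was 22.9% for replication (Mcm6), 127% for G1 genes (Cdk4) and 22.3% for factors (E2f1). The mean log2 difference of the factors was -1.23 with a pseudocount of 2 CPM. HIRE1del/del PA2 had 1 higher member (Ccnd1) with no filter and with DESeq2. Leaving out 1 library gave 2 to 5 lower and 5 to 12 higher in the difference of the steps, 0 to 1 higher in HIRE1del/del PA2 and 13 to 22 lower in PA3 against PA2. Without both WT replicate 1 libraries, an alternative chosen after seeing the data, 11 were lower in PA3. Of all tested genes, 1490 of 14285 were then lower, rather than 2501 of 14383.

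With the replicate number as a replicate block, 1 member (Ccnd1) was higher in HIRE1del/del PA2. Apart from the arches, same-numbered libraries did not all deviate together (correlations from -0.312 to 0.276). Replicate 3 of WT PA2 did deviate with replicate 3 of HIRE1del/del PA2 (0.236) and PA3 (0.276). No pairing was taken from these numbers. The block changed the count of calls by over 1.5 times only in HIRE1del/del PA2. Low counts limit what can be said of Cdc45, Kif11 and Cdkn1a in the sorted libraries. With 3 libraries a group, even changes larger than their SE could go uncalled. In edgeR this held for Ccnd1 in HIRE1del/del PA2 (log2 change 0.27, SE 0.057).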
